A study of Rattus norvegicus with 19 samples.

Results

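The transcripts described here are those of axon guidance ligands and receptors in the rat T11 dorsal root ganglion, which houses the sensory neurons of 1 thoracic segment. They were chosen by gene symbol alone: semaphorins (Sema), plexins (Plxn), neuropilins (Nrp1 and Nrp2), ephrins (Efn), Eph receptors (Eph), Slits, Robos, netrins (Ntn), Unc5 receptors and Dcc. The symbols matched 97 probe sets of 58 genes, out of 31042 probe sets and 14217 named genes on the array. These were 17 semaphorins, 10 plexins and neuropilins, 5 ephrins, 12 Eph receptors, 6 Slits and Robos and 6 netrins, Unc5 receptors and Dcc. The remaining 2, Unc50 and Unc5cl, matched by their letters but are not netrin receptors, and they are counted among the 58. Each gene is represented by its brightest probe set, and the other 39 probe sets serve as a check.

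All rats were adult female Sprague-Dawley rats, with 1 ganglion and 1 Affymetrix array per rat and no pooling. In 7 rats studied at day 14 and 7 at day 7, surgeons had divided the dorsal and lateral cutaneous nerves of the segments on either side (T9, T10, T12, T13) unilaterally and spared T11, so that the intact T11 axons lay beside denervated skin and sprouted into it. The submitters presumed day 7 to be the initiation and day 14 the maintenance of this sprouting. The 5 naive rats had no operation, so surgery and denervation of the neighbouring skin cannot be told apart in any difference from naive, and per the design text 1 more naive array was removed at quality control.

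Semaphorins, ephrins, Slits and netrins are cues that steer growing axons. Semaphorins act through plexins, with neuropilins as co-receptors for the secreted class 3 members, ephrins through Eph receptors, Slits through Robos and netrins through Dcc and Unc5. In sensory ganglia these families sort axons during development, and several of them are also made in adult neurons and glia.

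Signals are log2 values on which a difference of 1 is a doubling, and the number of arrays limits the precision. A mean of 11 sensory neuron markers lay between 12.06 and 12.39 on every array, whereas 6 markers of central nervous tissue averaged 5.96 to 6.34. Skeletal muscle markers, which do not belong to the ganglion, averaged 7.90 on day 14 replicate 2, 9.27 on day 7 replicate 7 and 9.44 on naive replicate 1, against 6.19 to 6.96 on the other arrays. The 3' minus 5' signal of the control transcripts Gapdh and Actb averaged 3.26 ± 0.07 at day 14, 3.27 ± 0.08 at day 7 (SD, n = 7 each) and 3.42 ± 0.18 in naive rats (SD, n = 5). Of the 58 guidance genes, 46 exceeded 6 on the log2 scale on at least 5 arrays.

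No guidance gene passed an adjusted p of 0.05 in any comparison of groups (limma, Benjamini-Hochberg over all 31042 probe sets). The percentages of all probe sets that passed were 0.139 for day 14 against naive, 0 for day 7 against naive and 0 for day 14 against day 7, and 0.0258 in the F test of any difference among the 3 groups, which also held no guidance gene. An unadjusted p under 0.05 was met by 7 of 58 guidance genes (12.1%) for day 14 against naive, where 19.4% of all genes and 19.7% of all probe sets met it. It was met by 5 (8.62%) for day 7 against naive, where 9.95% of genes and 8.7% of probe sets met it, and by 4 (6.90%) for day 14 against day 7, where 10.5% and 11.3% did. The members' shares lay below those of all genes and all probe sets in each comparison, at day 7 by as little as 8.62% against 8.7%. Whether such gaps exceed chance was not tested.

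Over all 58 genes the numbers above and below naive were similar, while single families were not always so. At day 14, 28 guidance genes lay above and 30 below naive, with a median log2 difference of -0.004, where the median of all genes was 0.003. At day 7, 25 lay above and 33 below, with a median of -0.014 against -0.003 over all genes. Semaphorins had 3 genes above and 14 below naive at day 7, Slits and Robos had 5 above and 1 below naive at day 14, and plexins and neuropilins had 9 higher and 1 lower at day 14 than at day 7. Of all genes, 48.7% lay above naive at day 7 and 50.7% at day 14, and 51.9% were higher at day 14 than at day 7. These splits are among the most uneven of the families. Genes measured on the same rats are not independent, and the splits were not tested. Standard errors of the differences from naive ranged from 0.06 to 0.24 log2 units with a median of 0.09. The plot of differences by gene shows every member other than Sema6a within 0.4 log2 units of naive at both times.

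**Figure D1:**
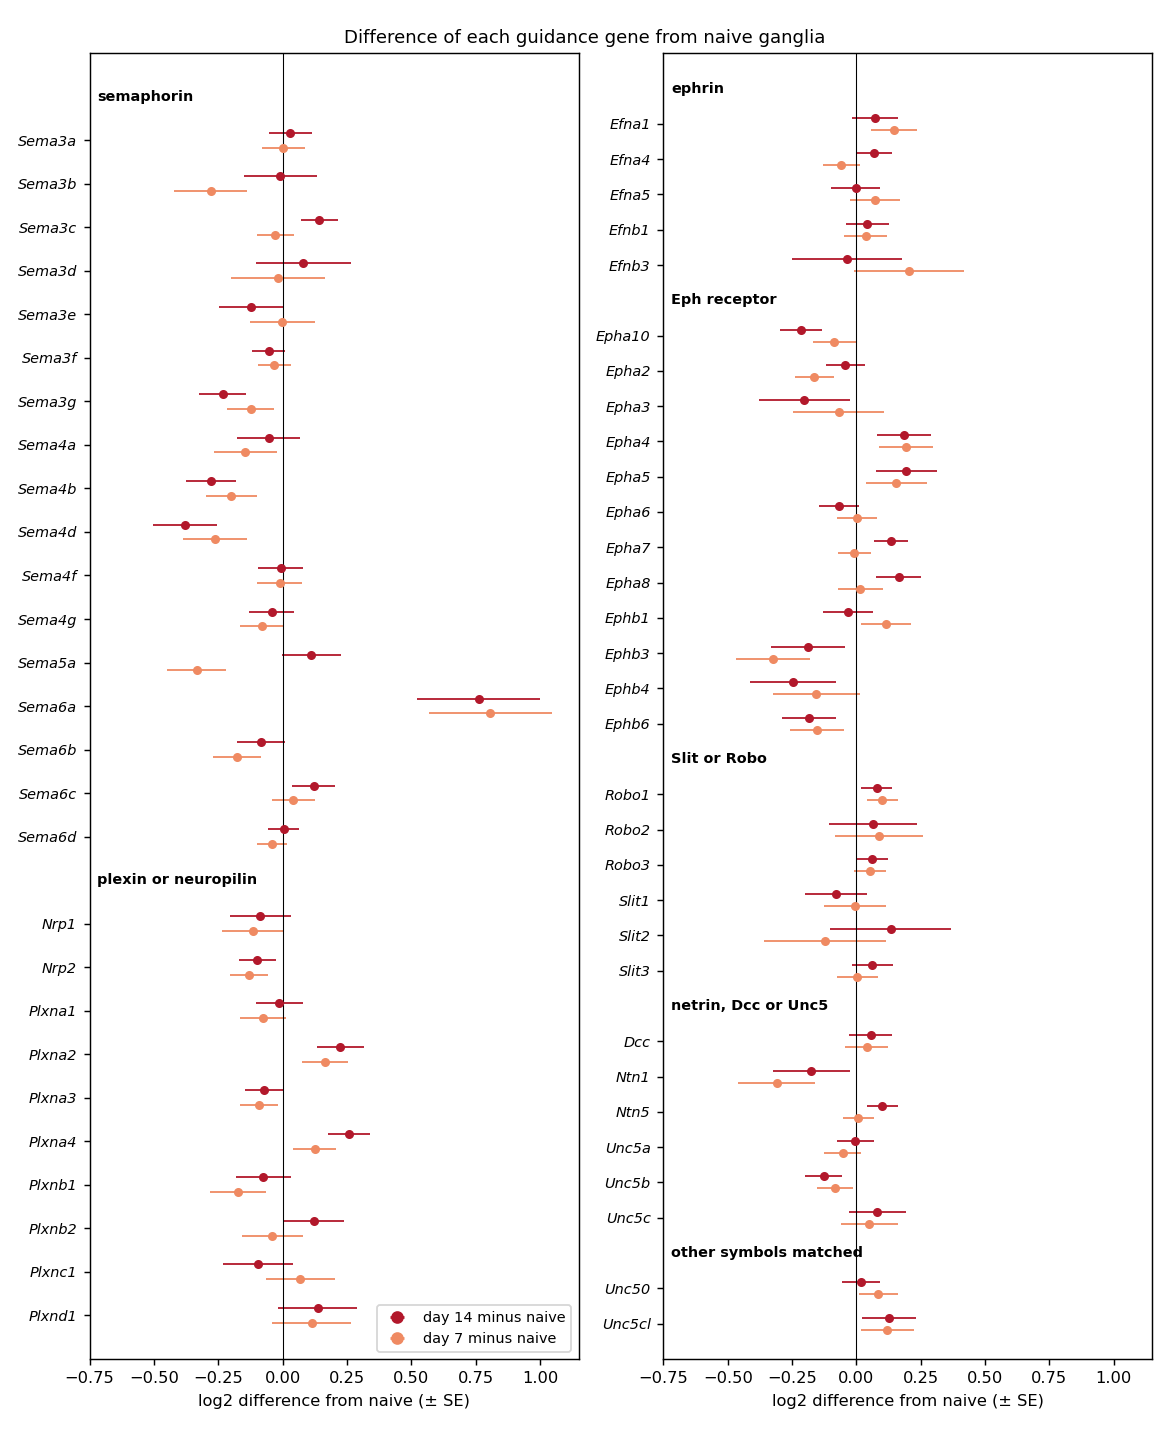
Log2 difference from naive (x axis) of each of the 58 guidance genes (rows, grouped by family), with day 14 in dark red above day 7 in orange; bars are the standard error of the limma fit. Sema6a, at 0.76 and 0.81, lies to the right of the other members, which range from -0.38 to 0.26.

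Sema6a, a transmembrane semaphorin that in mice binds plexin A2 and plexin A4, had the highest difference from naive of the 58 genes at both times. Its signal in the 7 day 14 rats had a lowest value of 8.29, a median of 8.95 and a highest of 9.68. In the 7 day 7 rats the lowest was 8.40, the median 8.79 and the highest 9.81, and the naive rats had 8.31, 8.16, 7.85, 8.30 and 8.32. Every day 7 rat therefore lay above every naive rat, and 6 of 7 day 14 rats did.

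The difference from naive was 0.76 ± 0.24 log2 units (SE; 95% interval 0.26 to 1.26), or 1.70-fold, at day 14, at a limma adjusted p of 0.119. At day 7 it was 0.81 ± 0.24 (SE; 95% interval 0.31 to 1.30), or 1.75-fold, with an adjusted p of 0.416. Neither passed the threshold. Sema6a at day 7 was the 1 guidance gene whose groups did not overlap in any comparison, where the share of all genes without overlap was 0.535% for day 7 against naive, 1.8% for day 14 against naive and 0.204% for day 14 against day 7. Operated rats were also more spread out, with an SD of 0.53 at day 14 and 0.49 at day 7 against 0.20 in naive rats.

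The second probe set of Sema6a had means of 7.22 ± 0.58 at day 14 and 7.19 ± 0.55 at day 7 (SD, n = 7 each), against 6.70 ± 0.17 in naive rats (SD, n = 5). Its differences from naive were 0.52 ± 0.26 and 0.49 ± 0.26 log2 units (SE), with limma adjusted p values of 0.273 and 0.621, and its groups overlapped. The other 3 Sema6a probe sets had mean signals under 5.4 and differed from naive by 0.18, 0.09 and 0.08 at day 14. Averaging all probe sets of the gene gave 0.33 at day 14 and 0.27 at day 7.

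Each rat's code in the labels begins with AI, AJ or AK, letters whose meaning is not given, and a difference could be taken within a prefix that held both groups. AI held 5 day 14 rats and no others, AJ held 2 day 14, 5 day 7 and 2 naive rats, and AK held 2 day 7 and 3 naive rats, so for most day 14 rats the prefix and the day cannot be told apart. With the prefix as a block in the fit, the Sema6a difference was 1.33 at day 14 and 0.91 at day 7, with limma adjusted p values of 0.418 and 0.705. Within AJ, Sema6a lay 1.25 above naive at day 14 and 0.79 at day 7, and within AK 1.04 at day 7. The day 14 rats of lowest Sema6a, replicates 2 and 7, were AI and so fell outside the AJ difference. Day 7 replicate 2, the highest of its group in Sema6a, was 1 of the 2 AK rats of day 7. Without the 3 arrays of highest muscle signal the differences were 0.90 and 0.77, and the 2 adjusted p values 0.087 and 0.262.

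**Figure D2:**
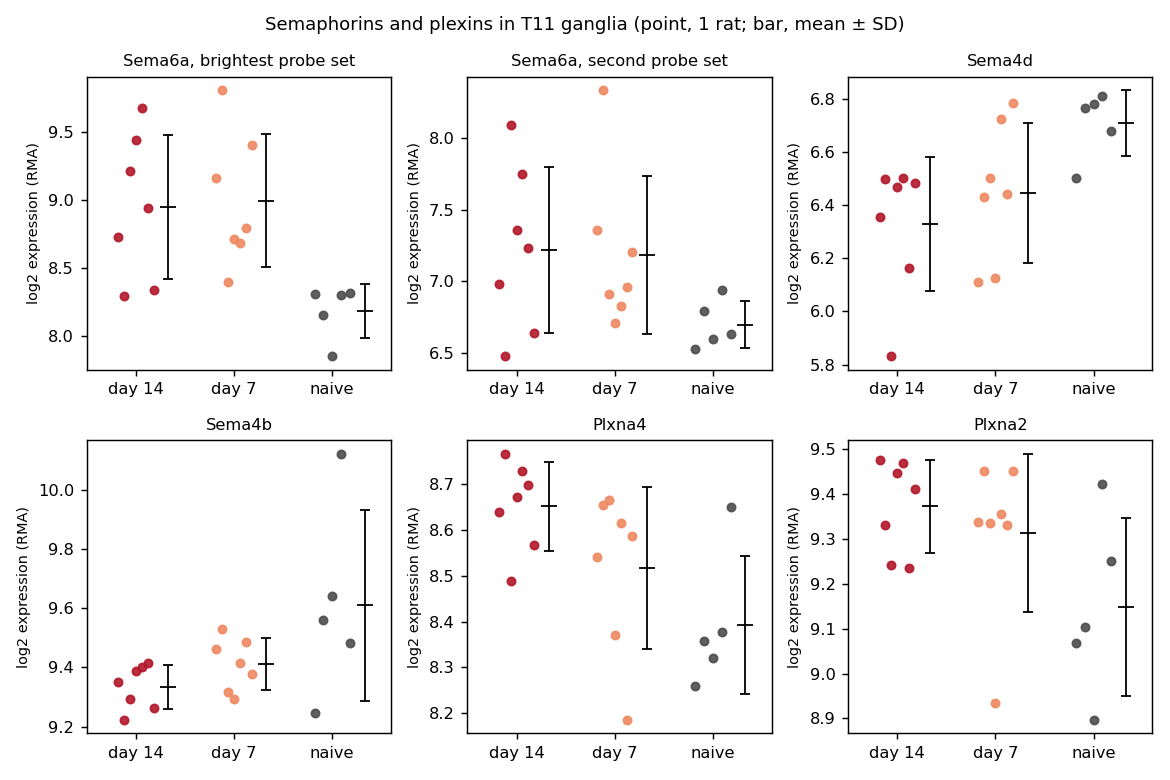
Log2 expression (y axis) of Sema6a by its 2 brighter probe sets and of Sema4d, Sema4b, Plxna4 and Plxna2 in day 14, day 7 and naive rats (x axis); each point is 1 rat and the bar is the mean ± SD. For the brightest Sema6a probe set all 7 day 7 rats lie above the naive rats, whose highest value is 8.32, and the operated rats are spread more widely than naive ones.

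Sema6a differed among rats that had the same operation, and so did Atf3, a transcription factor that sensory neurons induce when their axons are injured. Atf3 ranged from 8.12 to 11.63 with a median of 9.77 at day 14, from 7.28 to 11.15 with a median of 9.18 at day 7 and from 7.94 to 8.44 with a median of 8.17 in naive rats. The relation of each probe set to Atf3 was therefore fitted over the 14 operated arrays with a term for the day, an analysis chosen after the data had been seen. The largest gap between neighbouring Atf3 values was 0.87 in a range of 4.34, from 10.17 to 11.04. No operated rat lay between 8.33 and 9.18 either, and whether the operated rats form clusters was not tested.

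Sema6a rose with Atf3 across the operated rats. Its slope was 0.33 ± 0.05 log2 units per log2 unit of Atf3 (SE), for which limma gave an adjusted p of 0.0054, and its second probe set gave 0.39 ± 0.04 with an adjusted p of 0.00054. By p these ranked 31 and 11 among 31041 probe sets, of which 68 (0.219%) passed, 66 with a positive and 2 with a negative slope. Sema6a was the 1 guidance gene of 58 that passed. For comparison, the slopes of the injury genes Ecel1 and Gadd45a were 0.45 ± 0.04 and 0.28 ± 0.05, and that of Jun, a partner of Atf3, was 0.18 ± 0.03 (SE; adjusted p values 2.0e-05, 0.030 and 0.020).

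Pearson's r between Sema6a and Atf3 was 0.82 and Spearman's rank correlation 0.84 over the 14 operated rats (permutation test, two-sided, p = 0.00058 and 0.00038; adjusted over 12 relations, 0.0017 and 0.0015). Without the 2 rats farthest from the median of Atf3, r was 0.92. Within day 14 r was 0.84 and the rank correlation 0.82 (exact permutation test, two-sided, n = 7, p = 0.016 and 0.034; adjusted 0.020 and 0.034), and within day 7 they were 0.92 and 0.86 (p = 0.0056 and 0.024; adjusted 0.0083 and 0.026). Sema6a had been singled out on these same rats. The adjustment over its own 12 relations, here and for the second probe set, does not allow for the search over all guidance genes.

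The second probe set gave r = 0.89 and a rank correlation of 0.88 over the 14 rats (permutation test, two-sided, p = 4.0e-05 and 8.0e-05; adjusted 0.00048 for each) and r = 0.87 without the same 2 rats. Its r was 0.97 within day 14 and 0.88 within day 7, and its rank correlation 0.93 and 0.96 (exact permutation test, n = 7; adjusted p at most 0.0090). The correlations were positive on both days and with both probe sets. The days are parts of the same 14 rats and the probe sets read the same RNA, so these values are not independent of the fit above.

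Individual rats show how far the relation reaches. At day 14, replicates 2 and 7 had Atf3 values of 8.33 and 8.12, inside the naive range, and Sema6a values of 8.29 and 8.34, beside a highest naive value of 8.32. At day 7, replicates 3, 4 and 5 also had low Atf3, at 7.95, 7.28 and 7.88. Their Sema6a values on the brightest probe set, 8.40, 8.71 and 8.69, exceeded every naive rat. On the second probe set these replicates had 6.91, 6.71 and 6.83, inside the naive range of 6.53 to 6.94. With Atf3 as a term in the fit of all 19 arrays, the Sema6a difference from naive was 0.22 ± 0.15 at day 14 and 0.51 ± 0.13 at day 7 (SE; limma adjusted p = 0.477 and 0.421), and for the second probe set -0.11 ± 0.13 and 0.14 ± 0.12 (0.692 and 0.779).

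The call for the brightest probe set was lost with day 7 arrays alone (adjusted p = 0.254), with day 14 arrays alone (0.189), with the code prefix as a block (0.067) and without day 7 replicate 2 (0.062), while its slope on Atf3 stayed between 0.30 and 0.43 in these and the other settings tried. Other injury measures gave the same call for Sema6a. The slope was 0.40 on Sprr1a, a small proline-rich protein induced in injured neurons, and 0.52 on Gal, the neuropeptide galanin (limma adjusted p = 0.0093 and 0.0016). It was 0.67 on the mean of 12 injury genes, a list that holds Atf3, Sprr1a and Gal (limma adjusted p = 0.0012). Sprr1a and Gal themselves rose with Atf3, at slopes of 0.76 ± 0.07 and 0.65 ± 0.03 (SE; limma adjusted p = 5.4e-05 and 5.7e-08). These measures are therefore not independent of Atf3.

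**Figure D3:**
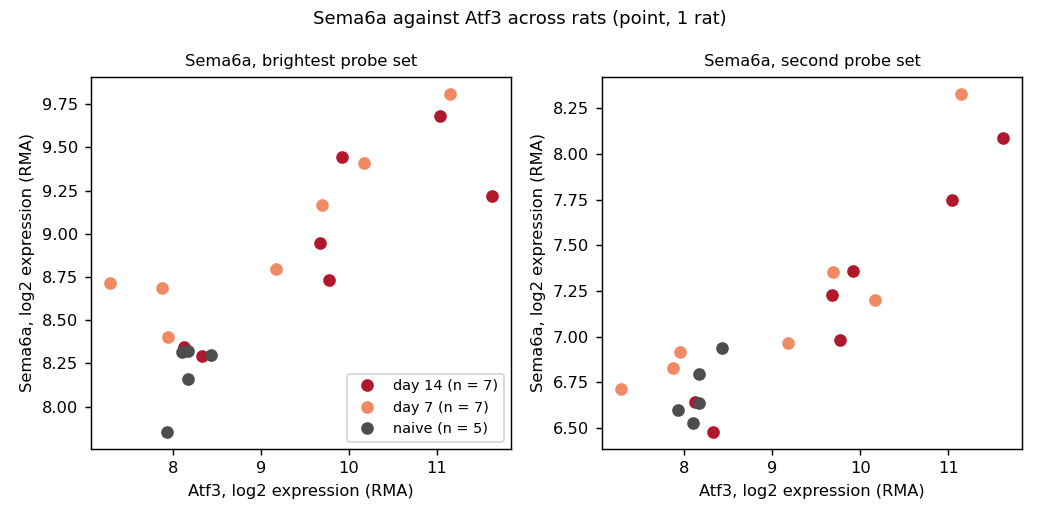
Log2 expression of Sema6a (y axis; brightest probe set on the left, second on the right) against log2 expression of Atf3 (x axis) in day 14 (dark red), day 7 (orange) and naive (grey) rats, 1 point per rat. Operated rats with Atf3 above 9 lie higher in Sema6a than naive rats, and 2 day 14 rats lie beside the naive rats. Day 7 replicates 3, 4 and 5 lie above the naive rats on the left and among them on the right.

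An unadjusted p under 0.05 against Atf3 was met by 9 guidance genes, 5 with positive and 4 with negative slopes (15.5%, where 10.2% of all genes met it). Beside Sema6a the positive ones were Sema4f, a transmembrane semaphorin, at 0.083 ± 0.020, Epha10, an Eph receptor without an active kinase, at 0.089 ± 0.023, Plxnb2, a receptor for class 4 semaphorins, at 0.106 ± 0.029, and Sema4a at 0.110 ± 0.041 (SE). None of these passed adjustment (limma adjusted p = 0.177 to 0.499). The negative ones were Epha6 at -0.078, Sema3e, a secreted ligand of plexin D1, at -0.096, Plxnc1, the receptor of Sema7a, at -0.109, and Ephb1 at -0.075, with adjusted p values of 0.347 to 0.645. The second Nrp1 probe set, with a mean of 10.01 beside 10.07 for the brightest, had a steeper slope of -0.142 ± 0.042. The brightest Nrp1 probe set had -0.081 ± 0.040 (SE; limma adjusted p = 0.309 and 0.719). The median slope of the 58 members was 0.0024, against 0.0021 over all genes. Epha10 passed with Sprr1a in place of Atf3, at a slope of 0.12 with an adjusted p of 0.031. Its signal of 5.09 to 5.72 lies below the limit of 6 that marks dim probe sets.

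**Figure D4:**
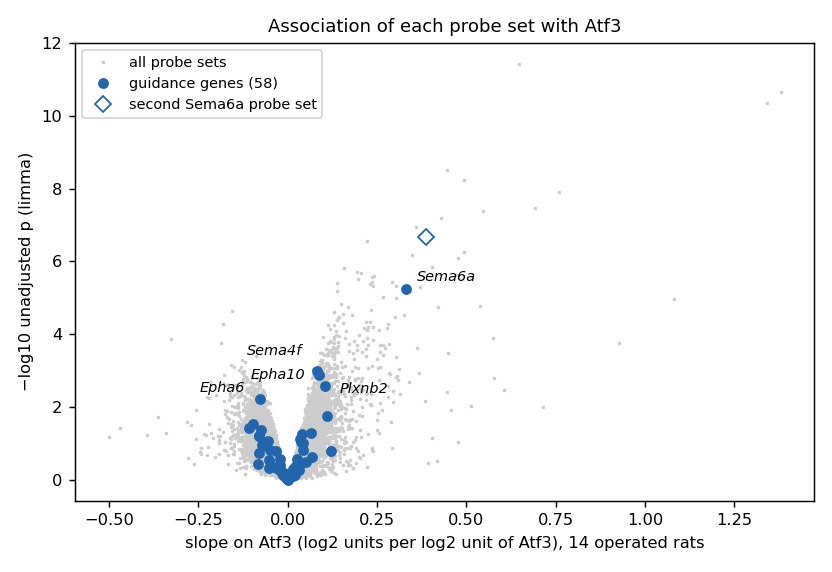
Slope of each probe set on Atf3 over the 14 operated rats (x axis, log2 units per log2 unit) against -log10 of its unadjusted limma p (y axis); grey points are all probe sets, blue points the 58 guidance genes and the open diamond the second Sema6a probe set. Both Sema6a probe sets lie above and to the right of the other members, whose slopes lie between -0.11 and 0.12.

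The sequences upstream of these genes are shown because Sema6a and Epha10 are the guidance genes that passed against an injury gene. They are the 250 bases before the annotated gene start in the RefSeq promoter table of assembly GRCr8, 5' to 3' on the strand of the gene, for Sema6a at chr18:42358541-42358790 (minus strand) and for Epha10 at chr5:142424046-142424295 (plus strand). Capitals mark a match to TGANTCA, the letters bound by AP-1 dimers, in which Jun and Atf3 can take part.
Sema6a: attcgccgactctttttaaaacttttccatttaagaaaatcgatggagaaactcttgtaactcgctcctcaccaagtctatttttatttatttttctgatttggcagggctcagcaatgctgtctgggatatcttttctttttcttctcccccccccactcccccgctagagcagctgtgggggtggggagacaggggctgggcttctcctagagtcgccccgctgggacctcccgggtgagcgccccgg
Epha10: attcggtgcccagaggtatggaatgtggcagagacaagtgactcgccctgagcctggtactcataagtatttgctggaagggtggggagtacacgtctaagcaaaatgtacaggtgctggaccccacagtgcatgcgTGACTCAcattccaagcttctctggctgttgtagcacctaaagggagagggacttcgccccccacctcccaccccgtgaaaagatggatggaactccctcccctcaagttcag

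Both strands were searched for TGANTCA and for TGACGTCA, the element of the Atf and Creb family. The table holds a promoter for 44 of the 58 guidance genes. Epha10 was the 1 member with TGANTCA, which starts 113 bases before the gene start, and Epha2 the 1 with TGACGTCA, so the matches do not overlap. Of all 33469 promoters, 6.34% hold TGANTCA and 1.59% hold TGACGTCA in the same window. The Sema6a window holds neither. A match is a description of letters only, and sequence outside the window was not examined.

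Among the other semaphorins, Sema4d, a transmembrane ligand of plexin B1, had the lowest difference at day 14. Its lowest, median and highest values were 5.83, 6.47 and 6.50 at day 14 and 6.11, 6.44 and 6.78 at day 7, and the naive rats had 6.50, 6.76, 6.78, 6.81 and 6.68. In 6 of 7 day 14 rats and 4 of 7 day 7 rats the value lay below every naive rat. The differences from naive were -0.38 ± 0.13 and -0.26 ± 0.13 log2 units (SE), with limma adjusted p values of 0.133 and 0.572.

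Sema4b, another transmembrane semaphorin of the same class, had values of 9.22, 9.35 and 9.41 at day 14 (lowest, median and highest) and of 9.29, 9.41 and 9.53 at day 7, while the naive rats had 9.25, 9.56, 9.64, 10.12 and 9.48. Its differences were -0.28 ± 0.10 and -0.20 ± 0.10 (SE; limma adjusted p = 0.151 and 0.589). The lowest naive value was that of replicate 1, an array with high muscle signal. Without it the day 14 difference of -0.37 passed at an adjusted p of 0.0496, as did 401 probe sets in all against 43 with it. Without naive replicate 4, the highest naive rat, the day 14 difference was -0.15, and with the 3' minus 5' signal as a covariate it was -0.10.

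Sema5a, a transmembrane semaphorin with thrombospondin repeats, differed most between the days. Its signal had a lowest value of 9.84, a median of 10.44 and a highest of 10.60 at day 14, and of 9.57, 9.92 and 10.15 at day 7, while naive rats had 10.11, 10.26, 10.09, 10.45 and 10.26. In 6 of 7 day 14 rats it lay above every day 7 rat, and in 6 of 7 day 7 rats below every naive rat. The difference of day 14 from day 7 was 0.45 ± 0.10 log2 units (SE; 95% interval 0.23 to 0.66; limma adjusted p = 0.261), that of day 7 from naive -0.33 ± 0.11 (0.455) and that of day 14 from naive 0.11 ± 0.11 (0.601). Its second probe set, at a mean of 6.68, gave 0.19, -0.30 and -0.11 for the same comparisons, and the 2 others, with means under 5.4, gave 0.14 and 0.07, 0.02 and 0.06, and 0.16 and 0.13. Within AJ the day 7 difference from naive was -0.17 and within AK -0.50.

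The secreted class 3 semaphorins Sema3b and Sema3c, ligands of neuropilins, also had higher signal at day 14 than at day 7. Sema3b had 10.22, 10.61 and 10.90 at day 14 (lowest, median and highest) and 9.97, 10.24 and 10.65 at day 7, with naive values of 10.10, 10.69, 10.85, 10.81 and 10.50. Sema3c had 10.61, 10.94 and 11.08 at day 14 and 10.65, 10.68 and 10.87 at day 7, with naive values of 10.62, 10.75, 10.72, 10.89 and 10.77. The groups overlapped, and the differences of day 14 from day 7 were 0.27 ± 0.13 and 0.17 ± 0.07 (SE; limma adjusted p = 0.436 and 0.370). Within AJ the Sema3c difference was 0.30.

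Some lists of cell type markers were also higher at day 14 than at day 7. All 6 fibroblast and meninges markers were higher at day 14 than at day 7, with a median log2 difference of 0.27, and their mean signal was 11.66 to 12.17 at day 14, 11.43 to 11.87 at day 7 and 11.75 to 12.02 in naive rats. All 6 measured markers of myelinating Schwann cells were higher too, with a median of 0.27 and mean signals of 10.85 to 11.35 at day 14, 10.49 to 11.22 at day 7 and 10.96 to 11.31 in naive rats. Of these lists 5 and 3 markers met an unadjusted p under 0.05, which 10.5% of all genes met, and none passed adjustment with limma. All 6 markers of each list were also lower at day 7 than in naive rats, with medians of -0.21 and -0.23. The medians for day 14 against naive were 0.09 and 0.03. The other cell type lists held no marker with an unadjusted p under 0.05 between the days: their medians were 0.02 for sensory neurons (9 of 11 higher), 0.05 for satellite glia (5 of 5), 0.05 for endothelium and pericytes (5 of 7), 0.18 for macrophages (6 of 8), 0.05 for central nervous tissue (3 of 6) and -0.43 for skeletal muscle (0 of 9). The part of these cells in the Sema5a, Sema3b and Sema3c values was not tested, and in whole ganglia fewer cells of a type and less RNA per cell cannot be told apart.

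**Figure D5:**
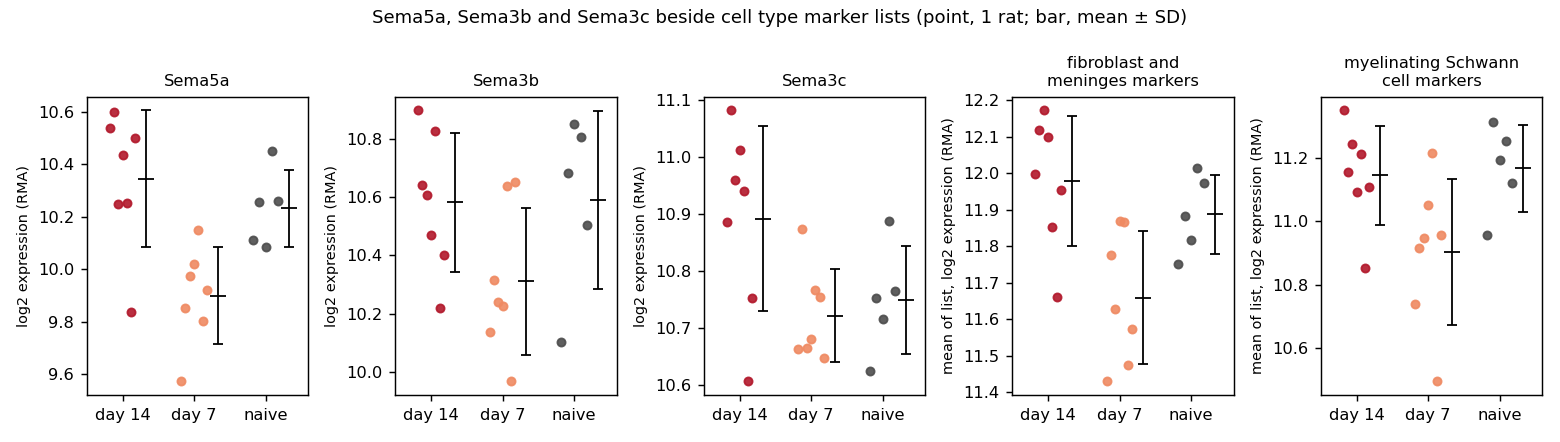
Log2 expression (y axis) of Sema5a, Sema3b and Sema3c, and the mean log2 expression of the fibroblast and meninges list and of the myelinating Schwann cell list, in day 14, day 7 and naive rats (x axis); each point is 1 rat and the bar is the mean ± SD. In all 5 panels the day 7 mean lies below the day 14 mean, and for Sema5a 6 of 7 day 14 rats lie above every day 7 rat.

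Of the remaining semaphorins, Sema3g was the 1 with an unadjusted p under 0.05, at day 14. Sema3a, the secreted repellent of nerve growth factor responsive sensory axons, was dim, at 4.85 to 5.37 on all arrays, and differed from naive by 0.03 ± 0.08 at day 14 and 0.00 ± 0.08 at day 7 (SE). At so low a signal these values do not bound a change of the transcript. Sema3g had a difference of -0.23 ± 0.09 at day 14 with an adjusted p of 0.179 by limma and 4 of 7 rats below every naive rat. Sema6c lay at 0.12 ± 0.08 at day 14. In all, 7 of 17 semaphorins lay above naive at day 14 and 3 of 17 at day 7.

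Of the receptors of semaphorins, Plxna4 and Plxna2 had the highest differences at day 14, and both bind Sema6a. Plxna4, which with Nrp1 also transmits Sema3a signals, had 8.49, 8.67 and 8.77 at day 14 (lowest, median and highest), 8.19, 8.59 and 8.66 at day 7 and 8.26, 8.36, 8.32, 8.38 and 8.65 in naive rats. At day 14, 4 of 7 rats lay above every naive rat, and the difference was 0.26 ± 0.08 log2 units (SE; limma adjusted p = 0.125). At day 7 it was 0.12 ± 0.08 (0.698), with 0.27 within AJ and -0.04 within AK. Its second probe set gave 0.33 ± 0.13 at day 14 and 0.20 ± 0.13 at day 7 (SE; adjusted p = 0.179 and 0.691).

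Plxna2 had 9.24, 9.41 and 9.48 at day 14 and 8.93, 9.34 and 9.45 at day 7, with naive values of 9.07, 9.10, 8.90, 9.42 and 9.25. The groups overlapped, with differences of 0.22 ± 0.09 and 0.17 ± 0.09 (SE; limma adjusted p = 0.186 and 0.625). Its 2 other probe sets, at means of 8.25 and 7.20, gave -0.01 and 0.03 at day 14, so the probe sets of Plxna2 disagree. The other 8 plexins and neuropilins ranged from -0.10 to 0.14 at day 14. Nrp1 lay at -0.09 ± 0.12 by its brightest probe set and at 0.20 ± 0.16 by the second (SE), and Nrp2 at -0.10 ± 0.07.

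Ephrins, the membrane-bound ligands of Eph receptors, differed little, from -0.04 to 0.07 at day 14 and from -0.06 to 0.20 at day 7. Efna1 had the smallest p at day 7, with lowest, median and highest values of 7.02, 7.20 and 7.44 at day 14, of 7.10, 7.25 and 7.45 at day 7 and of 6.87, 7.18 and 7.30 in naive rats. Its differences were 0.07 ± 0.09 and 0.15 ± 0.09 (SE; limma adjusted p = 0.670 and 0.667). The dim Efna4 had 5.46 to 5.81 at day 14 and 5.35 to 5.61 at day 7, a difference of 0.13 ± 0.07 between the days (adjusted p = 0.470), and 5.42 to 5.70 in naive rats. Efna5 lay at -0.002 ± 0.096 at day 14 and 0.072 ± 0.096 at day 7.

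Eph receptors lay on both sides of naive, with 4 of 12 above at day 14 and 5 of 12 at day 7. Ephb3, a receptor of class B ephrins, had 7.22, 7.67 and 7.93 at day 14 (lowest, median and highest), 6.94, 7.55 and 7.83 at day 7 and 7.67, 7.96, 7.66, 8.04 and 7.69 in naive rats. At day 7, 4 of 7 rats lay below every naive rat, and the difference was -0.33 ± 0.14 (SE; limma adjusted p = 0.543), with -0.19 ± 0.14 at day 14 (0.468). Ephb4 and Ephb6, which with Ephb3 and Ephb1 are the class B receptors measured, lay at -0.25 ± 0.17 and -0.19 ± 0.10 at day 14, and Ephb1 at -0.03 ± 0.10.

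Epha10 had 5.09, 5.32 and 5.58 at day 14, 5.34, 5.40 and 5.72 at day 7 and 5.49, 5.42, 5.61, 5.72 and 5.48 in naive rats. In 5 of 7 day 14 rats it lay below every naive rat, with a difference of -0.22 ± 0.08 (SE; limma adjusted p = 0.173). The other dim class A receptors with small p values were Epha2, at -0.16 ± 0.08 at day 7 (adjusted p = 0.555), and Epha7, at 0.14 ± 0.06 between day 14 and day 7 (0.395). Epha2 ranged from 5.53 to 5.90 at day 14, from 5.39 to 5.70 at day 7 and from 5.66 to 5.90 in naive rats, and Epha7 from 5.12 to 5.49 at day 14, 4.97 to 5.32 at day 7 and 5.09 to 5.17 in naive rats, with 6 of 7 day 14 rats above every naive rat.

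Of the 4 class A receptors that exceeded 6 on at least 5 arrays, Epha4 and Epha5 lay above naive at both times without reaching the threshold. At day 14, Epha3 lay at -0.20 ± 0.18 and Epha6 at -0.07 ± 0.08 (SE). Epha4, a receptor that binds ephrins of both classes, lay at 0.19 ± 0.10 at both times, with 4 of 7 day 14 and 3 of 7 day 7 rats above every naive rat (SE; limma adjusted p = 0.326 and 0.623). Epha5 lay at 0.19 ± 0.12 and 0.16 ± 0.12, with 5 of 7 rats above and 2 of 7 below every naive rat on each day, so its operated rats spread to both sides. The Epha4 differences were 0.08 and 0.09 without naive replicate 3, the lowest naive rat. The second Epha4 probe set gave 0.03 and 0.21.

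Slit2, a secreted ligand that promotes branching of sensory axons in rat cultures, varied widely within groups. It had 8.64, 9.25 and 9.82 at day 14 (lowest, median and highest), 8.30, 9.04 and 9.66 at day 7 and 9.08, 9.60, 9.03, 8.59 and 9.59 in naive rats. The groups overlapped, with differences of 0.13 ± 0.24 at day 14 and -0.12 ± 0.24 at day 7 (SE; limma adjusted p = 0.783 and 0.918). Its second probe set gave 0.02 ± 0.10 and -0.13 ± 0.10. The intervals of the brightest probe set, -0.36 to 0.63 and -0.62 to 0.37, do not exclude differences as large as several members named above. Without naive replicate 4 the day 14 difference was -0.01.

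The Robo receptors lay near naive. Robo1 was dim, at 5.78 to 6.03 at day 14, 5.75 to 6.02 at day 7 and 5.70 to 5.96 in naive rats, with differences of 0.08 ± 0.06 and 0.10 ± 0.06 (SE; limma adjusted p = 0.466 and 0.670). Robo2 lay at 0.06 ± 0.17 and 0.09 ± 0.17, and its second probe set at -0.26 ± 0.17 and 0.00 ± 0.17. The dimmest of the 3 lay at 0.08 ± 0.11 and 0.27 ± 0.11, so these did not go the same way. Without naive replicate 3, the lowest naive rat, the brightest Robo2 probe set turned to -0.16 at day 14 and -0.13 at day 7.

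Ntn1, the secreted netrin that acts on Dcc and Unc5 receptors, had 7.12, 7.35 and 7.95 at day 14 (lowest, median and highest), 7.07, 7.22 and 7.56 at day 7 and 7.16, 7.64, 8.01, 7.93 and 7.31 in naive rats. The groups overlapped, with differences of -0.18 ± 0.15 and -0.31 ± 0.15 (SE; limma adjusted p = 0.518 and 0.581). Within AJ the day 14 difference was 0.18, the opposite sign. The 2 other probe sets of Ntn1, with means under 5.6, differed from naive by 0.01 and 0.07 at day 14. The dim Ntn5 ranged from 4.38 to 4.54 at day 14, from 4.25 to 4.43 at day 7 and from 4.11 to 4.51 in naive rats, with a difference from naive of 0.10 ± 0.06 at day 14 (adjusted p = 0.358).

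Among netrin receptors, Dcc was dim on these arrays, at 4.27 to 4.78, and lay at 0.05 ± 0.08 at day 14 and 0.04 ± 0.08 at day 7. Unc5c lay at 0.08 ± 0.11 and 0.05 ± 0.11, which turned to -0.04 and -0.07 without naive replicate 3, and Unc5b at -0.13 ± 0.07 and -0.08 ± 0.07 (SE). None of the 6 netrins and receptors met an unadjusted p under 0.05 in any comparison. Unc50 and Unc5cl lay at 0.02 and 0.13 at day 14.

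The other probe sets often went against the brightest one. Of 39, 22 had the same sign for day 14 against naive, 21 for day 7 against naive and 25 for day 14 against day 7, and none passed adjustment. Of the 13 with a mean above 6, the numbers were 7, 10 and 10.

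Other genes of the same pathways were taken from a list of 76, of which 70 were measured. None passed an adjusted p of 0.05 in any comparison of groups (limma). An unadjusted p under 0.05 was met by 7 higher and 8 lower genes at day 14 (21.4%), by 1 higher and 6 lower at day 7 (10%) and by 2 higher genes for day 14 against day 7 (2.86%), shares near or below those of all genes. The median differences were -0.004, -0.03 and 0.03.

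Flrt3, a transmembrane ligand of Unc5 receptors that also binds Robo1, stood out in the list. Its lowest, median and highest values were 8.46, 8.64 and 9.55 at day 14 and 8.20, 8.40 and 9.46 at day 7, and the naive rats had 8.32, 8.28, 8.05, 8.06 and 8.11. All 7 day 14 rats and 4 of 7 day 7 rats lay above every naive rat, and 1.8% of all genes had day 14 and naive groups that did not overlap. Flrt3 was singled out after its values were seen. The differences were 0.65 ± 0.21 and 0.46 ± 0.21 log2 units (SE; limma adjusted p = 0.121 and 0.543). Flrt3 was also the 1 gene of 70 that passed against Atf3 over the 14 operated rats, with a slope of 0.29 ± 0.04 (SE; adjusted p = 0.0044), while 11 of 70 (15.7%) met an unadjusted p under 0.05. Over the array, 0.219% of probe sets passed and 10.2% of genes met the unadjusted p.

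On the lower side, Vav2, which acts downstream of Eph receptors, lay at -0.28 ± 0.08 at day 14 and -0.33 ± 0.08 at day 7 (SE; limma adjusted p = 0.112 and 0.336). Src, a kinase used by Eph and netrin receptors, lay at -0.28 ± 0.12 and -0.31 ± 0.12 (0.204 and 0.481). Flrt1, of the same family as Flrt3, lay at -0.31 ± 0.10 at day 14 (0.124). Adam10, a protease that cleaves ephrins and their receptors, lay at 0.23 ± 0.08 at day 14 (0.156), and Arhgef11, which class B plexins bind, at 0.17 ± 0.06 (0.152).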

How the data were processed

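RNA of single T11 ganglia from 19 rats (7 at day 14, 7 at day 7 and 5 naive) was measured on 1 array each, after 2 rounds of linear amplification per the design text. The authors deposited log2 values, 1 per probe set and array. The submitters' processing notes name RMA and limma, without versions. RMA subtracts background and gives every array the same distribution, so a change shared by most transcripts cannot be seen. Of 31099 probe sets, 57 controls were left out. The platform annotation supplied gene symbols, which were brought up to date by gene identifier with RefSeq (assembly GRCr8); all 97 guidance probe sets matched. Of all probe sets, 20826 had 1 gene symbol, 436 several and 9780 none.

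Differences were fitted with limma 3.58.1 in R 4.3.3 (lmFit and eBayes, all 3 groups in 1 fit, Benjamini-Hochberg over all probe sets within a comparison, threshold 0.05). The fit was tested on simulated data made by shuffling whole arrays across groups, which gives the groups a common spread. The wider spread of Sema6a in operated rats was not simulated. For correlations and plots, scipy 1.17.1, numpy 2.4.6, matplotlib 3.10.9 and pandas 2.3.3 ran under Python 3.11.15. Each rat is a separate animal. Full values are given for members past the threshold, for the 5 of smallest p per comparison and the 2 of smallest p per family; differences also for a fixed set of well-studied members and the 3 highest and lowest of each family. The guidance genes, marker lists and pathway list were chosen with earlier results of these data known. Alternatives were a filter on dim probe sets (above 6 on at least 5 arrays), cyclic loess, other moderation, array weights, the groups and probe sets used, blocks for replicate number and code prefix, covariates for 3' minus 5' signal and muscle markers, and leaving out each array (for members without full values, chosen after seeing the data). The association with Atf3 and its alternatives were chosen after seeing the data.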

Additional observations from a re-analysis of the deposited data

Results flagged for a closer look

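In each group of 5 or 7 rats the highest and lowest value of every guidance gene, and of the marker list means, was compared with its neighbour. Of 207 groups examined, 20 held a value whose gap to the next, divided by the range of the group, exceeded the 95% critical value of Dixon's test. Chance gives about 10.35 if the groups are independent. They share the same arrays, so whether 20 is an excess was not tested.

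On day 14 replicate 3, which had the highest Atf3 of all rats at 11.63, 4 guidance genes stood apart from the other day 14 rats. Efna5 was lowest at 9.85, with the next rat at 10.32, Plxnc1 was lowest at 9.27 (next 10.08) and Robo2 was lowest at 10.37 (next 11.01), while Ephb4 was highest at 7.87 (next 7.33). The sensory neuron marker mean was also lowest there, at 12.06, with the next at 12.25.

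On day 7 replicate 2, which had the highest Atf3 of day 7 at 11.15, another 4 stood apart, all as the highest of their group. Efnb3 was at 7.38 (next 6.35), Plxnb2 at 10.24 (next 9.71), Sema4a at 8.84 (next 8.11) and the second Sema6a probe set at 8.33 (next 7.36).

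Day 7 replicate 4 had the lowest Plxna2 of its group at 8.93 (next 9.33) and the highest Sema6b at 7.55 (next 7.25). Among naive rats, replicate 3 was lowest for Epha4 at 7.58 (next 8.03), for Robo2 at 10.06 (next 11.05) and for Sema6d at 10.53 (next 10.68). Naive replicate 1 was lowest for Plxnd1 at 8.68 (next 9.34), and naive replicate 2 for Robo3 at 4.68 (next 4.89).

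The skeletal muscle mean was highest on day 14 replicate 2 at 7.90 (next 6.37), on day 7 replicate 7 at 9.27 (next 6.96) and on naive replicate 1 at 9.44 (next 6.49). The sensory neuron mean was highest among day 7 rats on replicate 7, at 12.39 (next 12.24).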

How the results depend on the processing

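Medians of the members stayed between -0.04 and 0.04 in all settings. In the comparisons of groups only Sema4b passed the threshold in any setting, so no guidance gene could change sign past it. Below the threshold signs did change. At day 14 against naive, Ntn1 ranged from -0.31 to 0.18 over the settings, and Sema3b kept its sign in 21 of 32. Probe sets passing for day 14 against naive (43) numbered 76 with array weights, 13 with only those groups fitted, 20 with 1 probe set per gene, 14 with gene means, 9 with the replicate block, 0 with the code prefix as a block, within AJ and with the 3' minus 5' covariate, 137 with the muscle covariate, 12 without the most muscle-rich array of each group, and 5 to 401 when 1 array was left out (65, 26, 6 and 16 without day 14 replicates 1, 2, 5 and 6, and 401, 28, 5 and 15 without naive replicates 1, 2, 3 and 5). For day 7 against naive they numbered 2 with the 3' minus 5' covariate and 0 to 2 with 1 array left out, and for day 14 against day 7 they numbered 1 with the prefix as a block, 1 within AJ and 0 to 3 with 1 array left out. Guidance genes passing numbered 0 to 1 for day 14 against naive with 1 array left out, Sema4b being the 1.

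Probe sets passing against Atf3 (68) numbered 5 with day 7 alone, 39 with day 14 alone, 173 on Sprr1a, 106 on Gal, 120 on the injury list mean, 35 with the prefix as a block, 35 with the replicate block, 29 without the 2 rats farthest from the median of Atf3 and 28 to 93 with 1 array left out (36, 44 and 35 without day 14 replicates 3, 5 and 7, and 28 without day 7 replicate 2). Guidance genes passing (1) numbered 0 with either day alone or the prefix as a block, 2 on Sprr1a and 0 to 1 with 1 array left out, the 0 being without day 7 replicate 2. The second Sema6a probe set was weaker with day 7 alone (slope 0.34, limma adjusted p = 0.649).

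Replicate numbers did not pair rats: deviations correlated above 0.1 in 1 of 5, 1 of 5 and 1 of 7 same-numbered pairs. Among 1792 other values, 1748 kept their size within the spread between rats and their side of the threshold. Nearly all belonged to comparisons that did not pass in the main fit, so keeping their side says little. A value counted as kept could also change sign, as Sema3b did at day 14. The causes of these shifts were not tested. Signal limits the 12 dim genes.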
